A study of Homo sapiens with 6 samples.

Results

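The clustered protocadherin genes fill one stretch of chromosome 5, taken here as chr5:140160000-140900000 in hg19, a window that holds the alpha, beta and gamma clusters. Open chromatin in this window was read from 6 deposited lists of ATAC-seq peaks, which mark places where a transposase could insert sequencing adapters. Every peak that overlapped the window by at least 1 bp was a member, and peaks of the 6 lists that shared at least 1 bp were merged into one region. The window held 41 of the 149765 merged regions of the genome, numbered here R01 to R41 from its start. The cells were H1155, an established human lung carcinoma line. The 3 control libraries carry the genotype control, and the 3 compared libraries carry the genotype chimera and are titled TA. Neither TA nor the chimera is explained in the labels, which also leave out how it was introduced and whether the cells are 1 clone. Libraries were made with the Omni-ATAC protocol from biological triplicates, and all came from the same cell line with no treatment, time or dose named. The question was whether regions of the window differed between chimera and control libraries in presence, width or fold.

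Clustered protocadherins are cell surface adhesion proteins of the cadherin superfamily, best known from neurons, where each cell expresses a small set of them and the combination marks the cell's identity. In the alpha and gamma clusters each variable exon has a promoter of its own and is spliced to constant exons shared by the whole cluster, whereas the beta genes are single exons with no shared constant part. Most of these promoters carry a conserved sequence element with the core CGCT, the C-type genes at the ends of the alpha and gamma clusters are in part an exception, and CTCF and cohesin fold chosen promoters onto distant enhancers.

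The family has 53 members, of which 15 are alpha, 16 beta and 22 gamma genes. RefSeq promoters of GRCh38.p14, which run from 250 bases before to 50 after a gene's start, were matched by symbol for 47 of them. The sequences shown are 40-base stretches around a CGCT on the + strand, with CGCT in capitals, because most matched promoters hold these letters. Where a promoter held several, the CGCT nearest to position -54 from the start is shown. The letters alone do not show that a promoter carries the conserved element. The sequences are a reference and no measurement of these cells. The first 4 come from PCDHA1 at chr5:140786084-140786123, PCDHA2 at chr5:140794779-140794818, PCDHA4 at chr5:140806977-140807016 and PCDHA8 at chr5:140841128-140841167, all alpha variable exons.
PCDHA1: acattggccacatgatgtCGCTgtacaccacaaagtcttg
PCDHA2: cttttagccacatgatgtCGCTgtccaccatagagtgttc
PCDHA4: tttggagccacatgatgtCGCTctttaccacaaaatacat
PCDHA8: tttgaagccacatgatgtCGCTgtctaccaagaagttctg

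Most beta promoters had another run of bases before the same core, which PCDHB1 lacked. The beta promoters shown are PCDHB1 at chr5:141051272-141051311, PCDHB2 at chr5:141094542-141094581, PCDHB3 at chr5:141100391-141100430 and PCDHB15 at chr5:141245312-141245351.
PCDHB1: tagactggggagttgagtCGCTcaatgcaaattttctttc
PCDHB2: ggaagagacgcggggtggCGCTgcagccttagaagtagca
PCDHB3: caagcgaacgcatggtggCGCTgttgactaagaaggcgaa
PCDHB15: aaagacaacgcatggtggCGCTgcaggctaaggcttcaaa

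The gamma promoters shown are PCDHGA1 at chr5:141330401-141330440, PCDHGA2 at chr5:141338701-141338740, PCDHGB1 at chr5:141350023-141350062 and PCDHGC4 at chr5:141484950-141484989, and the C-type alpha promoter is PCDHAC2 at chr5:140966417-140966456.
PCDHGA1: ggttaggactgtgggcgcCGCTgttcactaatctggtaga
PCDHGA2: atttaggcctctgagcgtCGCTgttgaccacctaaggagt
PCDHGB1: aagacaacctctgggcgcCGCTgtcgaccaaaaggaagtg
PCDHGC4: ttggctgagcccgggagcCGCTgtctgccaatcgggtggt
PCDHAC2: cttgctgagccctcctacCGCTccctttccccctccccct

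CGCT on either strand was found in 46 of the 47 matched promoters (97.9%) and in 70.0% of all 35116 promoters of the table. PCDHA9 was the matched member without it. On the gene's own strand and between 110 and 30 bases before the start, CGCT was found in 43 of 47 (91.5%) against 23.8% of all promoters. This band and the longer motifs that follow were chosen after the sequences were seen, and each longer motif contains CGCT. ATGTCGCT on either strand was found in 9 of 11 promoters of alpha 1 to 13 and in 0.234% of all promoters. GGTGGCGCT was found in 13 of 14 beta promoters and in 0.501% of all, and PCDHB1 was the beta promoter without it. GCCGCTGT was found in 5 of 11 gamma A, 4 of 7 gamma B and 2 of 2 gamma C promoters, and in 1.63% of all. GTCGCTGT was found in 5 of 11 promoters of alpha 1 to 13, 5 of 11 of gamma A and 1 of 7 of gamma B, and in 0.652% of all. The letters CCCTC, a part of the CTCF motif, were found in 14 of 47 (29.8%) against 71.2% of all promoters. A longer core of the CTCF motif was found in 0 of 47 and in 0.0655% of all, and TATAAA in 12.8% against 11.5%. Both CTCF strings were matched exactly and miss any site that differs by a base. Their counts therefore cannot tell whether CTCF sites are absent from these promoters. The median number of CpG per promoter was 7 for alpha 1 to 13, 7.5 for beta and 5 for gamma A, against 14 over all promoters, while gamma B, also variable exons, had 13. The C-type promoters held more, with a median of 21 for alpha C and 23 for gamma C. A match is a run of letters and not a bound site.

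These promoter coordinates cannot be placed on the regions. The submitters' processing notes name GRCh38, but a peak on chromosome 1 ends at 249239990, past the last gene of that chromosome in the GRCh38.p14 table, which ends at 248937099, and the rule for the window takes the positions as hg19. Of the 53 member starts in GRCh38.p14, 10 lay within 500 bp of a summit as they stand and 23 did so at the best of 20001 common shifts, with a median of 6 over the shifts. The best shift away from that one gave 17. No annotation of the files' build was used here, so no region was linked to a gene, and markers of the cell line and of other cell types were not checked. The intervals named alpha, beta and gamma follow the textbook layout of the clusters in hg19 and are approximate. In RefSeq order, SLC25A2 and TAF7 are the 2 other protein-coding genes between the first and last member, and they lie between the beta and gamma clusters.

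The lists held 101281, 85745 and 109339 peaks in control 1, 2 and 3, and 94500, 98999 and 99675 in chimera 1, 2 and 3. A summit's pileup, the number of fragments or reads stacked at the highest point, was recovered from the deposited fold and p. The genome-wide background pileup ranged from 2.53 to 3.05 in control and from 2.74 to 3.77 in chimera libraries, and a peak needed a pileup of at least 9 to 12 to be listed. The fold of a peak is the authors' ratio of the summit pileup to that library's own local background, with 1 added to each. It exists where a peak was called and nowhere else. A region without a peak lay below a library's calling limit and may still have been open. In bulk cells, fewer cells with an open region and less opening per cell cannot be told apart.

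No region of the window passed a test between chimera and control libraries, and the counts of peaks in the 2 groups overlapped. Control libraries had 36, 25 and 36 peaks in the window, and chimera libraries had 30, 32 and 24. Control 2 and chimera 3 were low. The means were 32.3 ± 6.35 (SD, n = 3) and 28.7 ± 4.16 (SD, n = 3), a difference of -3.67 peaks with a two-sided exact permutation p of 0.5, where 3 libraries against 3 cannot give less than 0.1. Peaks covered 17828, 12452 and 18453 bp of the window in control and 14217, 14631 and 12289 bp in chimera libraries. Control 2 lay among the chimera libraries, and the difference of -2532 bp had an exact permutation p of 0.3. Without control 2 the difference was -4428 bp, with an exact permutation p of 0.1, the smallest that 2 libraries against 3 can give. As a share of each list the window held 0.0355%, 0.0292% and 0.0329% of control peaks and 0.0317%, 0.0323% and 0.0241% of chimera peaks (exact permutation p = 0.4). Chimera 3 was the lowest by this share, although its list was not the shortest.

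**Figure D1:**
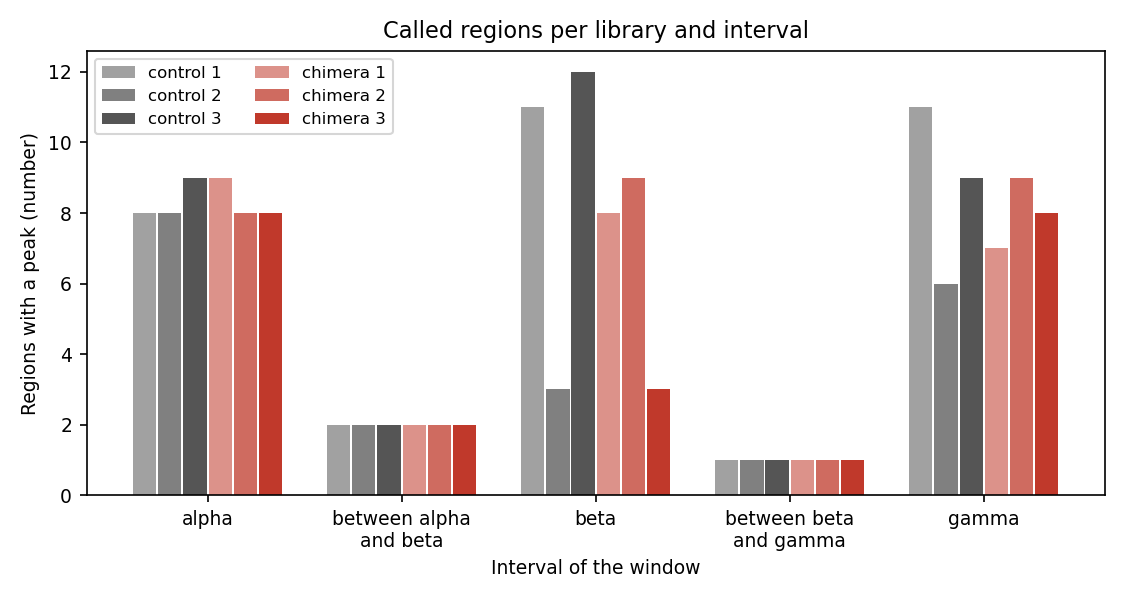
Number of regions of the window with a peak in each of the 6 libraries, split by interval. The alpha interval holds 8 or 9 regions in every library, and the beta interval holds 3 in control 2 and in chimera 3 against 8 to 12 in the others.

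Of the 41 regions, 16 were called in all 6 libraries (39.0%, against 37.8% of all regions of the genome), 17 in 2 to 5 libraries and 8 in 1. None had peaks in 3 of 3 chimera and 0 of 3 control libraries, a pattern held by 0.621% of all regions. None had the opposite pattern, held by 0.799% of all regions. A single region, R24, had peaks in 3 of 3 control and 1 of 3 chimera libraries, where 2.51% of all regions had 3 control and at most 1 chimera library. The reverse pattern was found for 0 regions of the window and for 2.07% of all. Peaks in more control than chimera libraries were found for 13 regions (31.7%, against 27.2% of all), and in more chimera than control libraries for 7 (17.1%, against 26.2%). The other 21 had equal numbers. These shares are near those of the genome, apart from the 7 regions with more chimera libraries, and that gap was not tested.

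**Figure D2:**
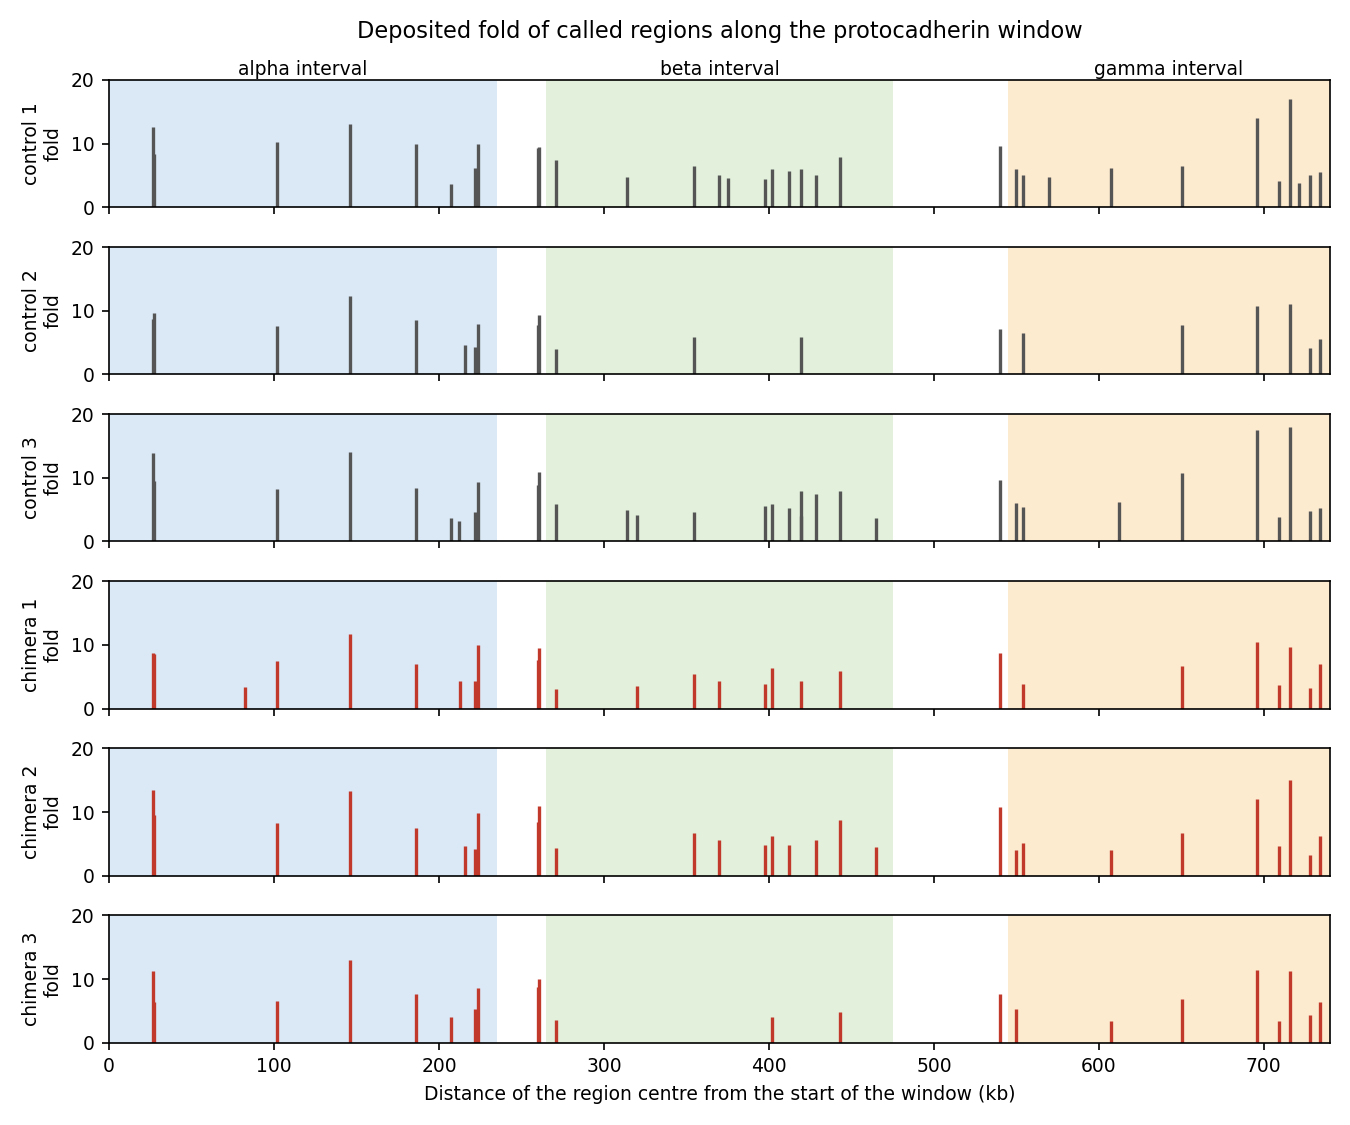
Position of every region along the window in kb from its start, with the deposited fold of its strongest peak in each library. Shading marks the approximate intervals. The beta interval holds 1 region called in all 6 libraries and 11 of its 14 regions in 2 to 5.

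Regions called in all 6 libraries were stronger at the median, though R11, R15 and R40 had low folds. R15 also had a low median pileup, 16.5. Those of R11 and R40 were 51 and 47.5, over median local backgrounds of 9.77 and 10.06. The median fold of the 16 was 8.80, against 7.08 over the 56679 such regions of the genome, and their median summit pileup was 57.75, against 50.5. Their median merged width was 957.5 bp, against 739 bp, and their median local background was 5.71, against 6.11. The 68 peaks in the other 25 regions had pileups of 12 to 32, with a median of 19, where the calling limit of a list was 9 to 12. The 96 library values in shared regions ran from 12 to 159, with a median of 59.

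Among the 3 clusters, alpha had the most even number of regions per library. Its 12 regions gave 8, 8 and 9 in control and 9, 8 and 8 in chimera libraries, and 7 of the 12 were called in all 6. The first pair, R01 (chr5:140186245-140186978) and R02 (chr5:140187067-140187447), lay 88 bp apart. R01 had folds of 12.7, 8.76 and 13.9 in control and 8.70, 13.4 and 11.3 in chimera libraries. The lowest values came from control 2 and chimera 1, so each group held both low and high values. R02 had folds of 8.33, 9.63 and 9.46 in control and 8.58, 9.57 and 6.46 in chimera libraries, with chimera 3 low and the groups overlapping.

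R05 (chr5:140305502-140306567) was the strongest alpha region by median fold, at 13.02. Its folds were 13.1, 12.4 and 14.1 in control and 11.8, 13.4 and 12.9 in chimera libraries, a narrow range in which the groups overlapped. The SD of its summit position over the 6 libraries was 4.50 bp. R04 (chr5:140261519-140262465) had folds of 10.3, 7.62 and 8.19 in control and 7.55, 8.29 and 6.61 in chimera libraries, again overlapping. Among the 7 alpha regions, R06 (chr5:140345453-140346469) alone had all 3 deposited chimera folds lower, at 7.07, 7.56 and 7.62 against 9.89, 8.56 and 8.47 in control. After each library was centred on its own median log2 fold, the R06 groups overlapped, and the log2 difference of -0.16 (SE 0.15) had an adjusted p of 0.734 (limma, Benjamini-Hochberg over 56679 regions).

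The end of the alpha interval held R07 to R12, of which R11 and R12 were called in all 6 libraries. R11 (chr5:140380973-140382061) had folds of 6.13, 4.28 and 4.59 in control and 4.35, 4.23 and 5.31 in chimera libraries, which overlapped. The SD of its summit position was 233 bp, the largest of the 16 shared regions. Its folds therefore do not all come from the same summit. R15 and R06 had the next largest SDs, 187 and 135 bp. R12 (chr5:140383484-140384270) had folds of 9.91, 7.91 and 9.30 in control and 10.1, 9.80 and 8.65 in chimera libraries, which overlapped as deposited. The other 4, R07 to R10, were called in 1 to 3 libraries with pileups of 12 to 19.

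Between alpha and beta, both regions were called in all 6 libraries and were among the deepest of the window. R13 (chr5:140419237-140420204) had summit pileups of 100, 78 and 110 in control and 82, 84 and 103 in chimera libraries. The SD of its summit position was 0.983 bp, the smallest of the 16 shared regions, whose median was 21.5 bp. R14 (chr5:140420349-140421026), 144 bp further on, had pileups of 101, 94 and 138 in control and 103, 110 and 120 in chimera libraries. Both groups overlapped at both regions, and folds ran from 7.66 to 10.9.

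The beta interval was the variable one, and it was weak at the median of all its regions. Its 14 regions had a median fold of 4.98 and a median pileup of 18.25, and 1 of them was called in all 6 libraries. Among regions called in 2 to 5 libraries beta was not weaker by fold. Their median fold was 5.19 in beta, 4.18 in alpha, 4.58 in gamma and 4.30 over the genome. The share called in 2 to 5 libraries was 78.6%, against 32.5% of all regions. Control libraries had 11, 3 and 12 beta regions and chimera libraries had 8, 9 and 3. Control 2 and chimera 3 were low in equal measure, one from each group. The means of 8.67 ± 4.93 and 6.67 ± 3.21 (SD, n = 3 each) differed by -2 regions, with an exact permutation p of 0.6.

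Control 2 and chimera 3 lacked more beta peaks than the other libraries did. Of the 8 beta regions called in 3 to 5 libraries, control 2 lacked 6 and chimera 3 lacked 6, while control 1 lacked 0, and neither control 2 nor chimera 3 had a peak in 9 of the 14. Over the whole window control 2 lacked 10 of 13 such regions (76.9%, against 56.4% over the genome), and chimera 3 lacked 7 of 13 (53.8%, against 31.6%). Chimera 3 had the highest genome-wide background pileup, 3.77, and control 2 the shortest list. The part of these values in the result was not tested.

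R15 (chr5:140430323-140431365) was the first region of the beta interval and the one called in all 6 libraries. Its peaks covered 1043, 504 and 959 bp in control and 297, 291 and 200 bp in chimera libraries. Every chimera library was narrower than every control library, with means of 835 ± 290 and 263 ± 54.4 bp (SD, n = 3 each). The log2 difference in width was -1.60 (SE 0.27), with an unadjusted p of 0.000311 and an adjusted p of 0.205 (limma, Benjamini-Hochberg), so it did not pass. Its folds were 7.38, 4.06 and 5.93 in control and 3.09, 4.31 and 3.57 in chimera libraries, with control 2 below chimera 2. Its pileups of 26, 15 and 23 against 12, 17 and 16 were small counts, 4 of them at 17 or lower. The log2 difference in fold was -0.53 (SE 0.18), with an adjusted p of 0.281 by limma. In control 1 a single peak spanned the region, and without that library the merged region came apart. The piece then called in every library (chr5:140430831-140431365) had a width difference of -0.59, with an adjusted p of 0.735, and a fold difference of -0.27, with an adjusted p of 0.742, both by limma. The other piece (chr5:140430354-140430777) had peaks in control 2 and 3 and in no chimera library. In that setting 1.58% of all regions had this pattern.

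R24 (chr5:140578986-140579539) had folds of 5.94, 5.84 and 7.90 in control libraries and 4.28 in chimera 1, and no peak in chimera 2 or 3. The control values all exceeded the one chimera value. Its pileups were 20, 22 and 31 in control and 17 in chimera 1, and it covered 486, 307 and 494 bp against 233 bp. R24 was 1 of the 3 beta regions seen in control 2. With a −log10 q of at least 10 required of a peak, R24 was present in all 3 control and in 0 of 3 chimera libraries, a pattern of 1% of all regions at that threshold. Control 1 and 2 passed it narrowly, at 10.03 and 10.44, while control 3 had 18.8 and chimera 1 had 5.86.

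The other beta regions are given by counts, with those singled out chosen after their values were seen. R16 (chr5:140474082-140474380) was called in control 1 and 3 alone, with folds of 4.81 and 4.94. R27 (chr5:140602780-140603276) had the highest median fold of the interval, 7.90, with folds of 7.92 and 7.90 in control 1 and 3 and 5.94, 8.82 and 4.82 in chimera libraries. At R27 control 2 was the library without a peak, and the groups overlapped. R18 (chr5:140514608-140515113) had folds of 6.51, 5.84 and 4.69 in control and 5.47 and 6.68 in chimera 1 and 2. R22 (chr5:140561763-140562136) had 5.94 and 5.85 in control 1 and 3 and 6.42, 6.22 and 3.98 in chimera libraries. These 2 lacked a peak in one library each, chimera 3 for R18 and control 2 for R22. The last region of the beta interval, R28, was followed by 74.5 kb with no peak in any library, the longest such gap in the window.

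**Figure D3:**
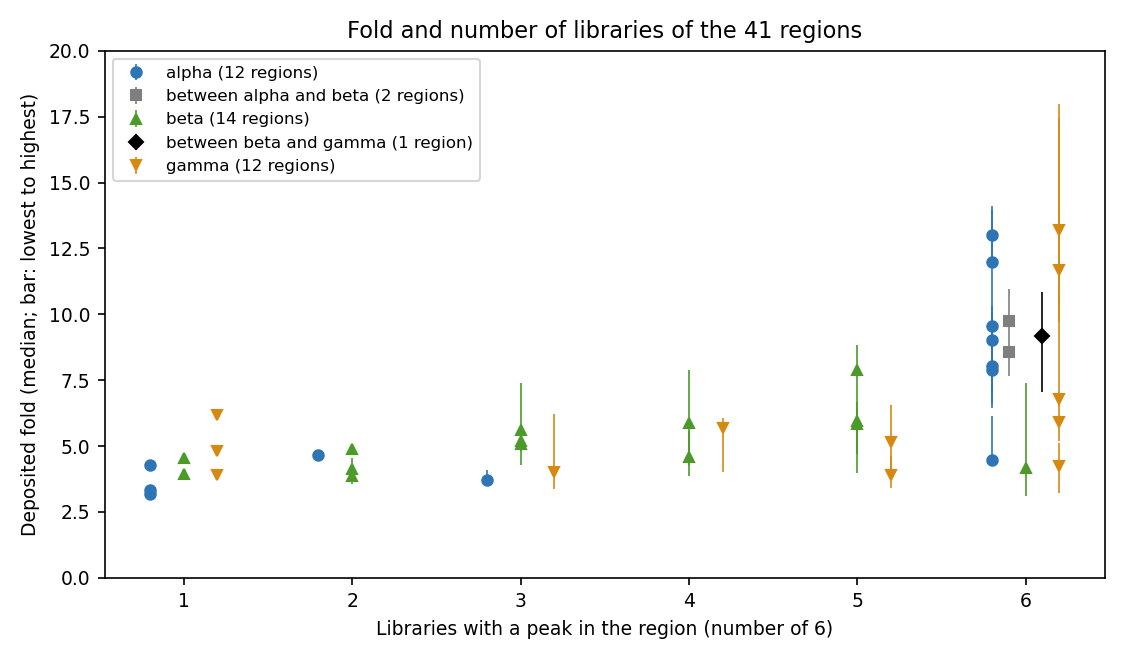
Deposited fold of each of the 41 regions (median, with a bar from the lowest to the highest library) against the number of libraries with a peak in it, by interval. Regions called in 1 to 5 libraries have median folds up to 7.90, and those called in all 6 reach 13.2.

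Between beta and gamma, 1 region was present, R29 (chr5:140699740-140700844), and all 6 libraries had it. Its folds were 9.61, 7.06 and 9.71 in control and 8.76, 10.9 and 7.63 in chimera libraries. The highest and the next to lowest values were both from chimera libraries, and the groups overlapped.

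The gamma interval had weak regions in its first part, and its strongest ones lay nearer its end, among other weak ones. Of these, R37 was called in 5 libraries with a median fold of 3.90, and R39 in control 1 alone with a fold of 3.89. Control libraries had 11, 6 and 9 of its 12 regions and chimera libraries had 7, 9 and 8, with means of 8.67 ± 2.52 and 8 ± 1 (SD, n = 3 each) and an exact permutation p of 0.9. The first 5 regions, R30 to R34, were each called in 1 to 5 libraries. R35 (chr5:140809924-140810456) was the first called in all 6, with folds of 6.51, 7.80 and 10.7 in control and 6.66, 6.68 and 6.90 in chimera libraries. Control 3 stood high at R35, and the groups overlapped.

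R36 (chr5:140855152-140856073) and R38 (chr5:140875578-140876212) were the strongest gamma regions. R36 had folds of 14.1, 10.8 and 17.4 in control and 10.4, 11.99 and 11.4 in chimera libraries. The deposited folds overlapped at control 2, and the centred ones did not, with a log2 difference of -0.19 (SE 0.11) and an adjusted p of 0.551 by limma. Without control 3 it was -0.10, with an adjusted p of 0.864 by limma. R38 had the highest median fold of the window, 13.2, with 17.1, 11.0 and 17.98 in control and 9.69, 15.1 and 11.3 in chimera libraries. Its folds overlapped, but its widths did not. R38 covered 618, 601 and 611 bp in control and 432, 433 and 405 bp in chimera libraries, with means of 610 ± 8.54 and 423 ± 15.9 bp (SD, n = 3 each). The log2 difference in width was -0.51 (SE 0.16), with an adjusted p of 0.463 by limma and Benjamini-Hochberg. R38's summit pileups, 117, 82 and 159 in control and 81, 103 and 106 in chimera libraries, overlapped.

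The last 2 regions lay toward the end of the gamma interval, and their log2 differences in fold had opposite signs, with neither passing. R40 (chr5:140887382-140889119) covered 1271, 1486 and 1258 bp in control and 933, 1036 and 653 bp in chimera libraries. Every chimera value was below every control value, with means of 1338 ± 128 and 874 ± 198 bp (SD, n = 3 each). The log2 difference in width was -0.62 (SE 0.20), with an adjusted p of 0.479 by limma. At R40 the log2 difference in fold was -0.29 (SE 0.18), with an adjusted p of 0.578 by limma. R41 (chr5:140893245-140894648) had folds of 5.58, 5.57 and 5.19 in control and 7.02, 6.25 and 6.49 in chimera libraries. All 3 chimera values were above all 3 control values, with means of 5.45 ± 0.220 and 6.59 ± 0.396 (SD, n = 3 each), although they overlapped once centred. The log2 difference in fold at R41 was 0.38 (SE 0.18), with an adjusted p of 0.428 by limma. Its log2 difference in width was -0.02 (SE 0.10). With fold as the measure again, the recovered pileup was also tried. With the recovered pileup in place of the fold, 52, 46 and 61 in control and 75, 68 and 84 in chimera libraries, the log2 difference was 0.54. Its adjusted p was 0.0596 by limma, still above 0.05.

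**Figure D4:**
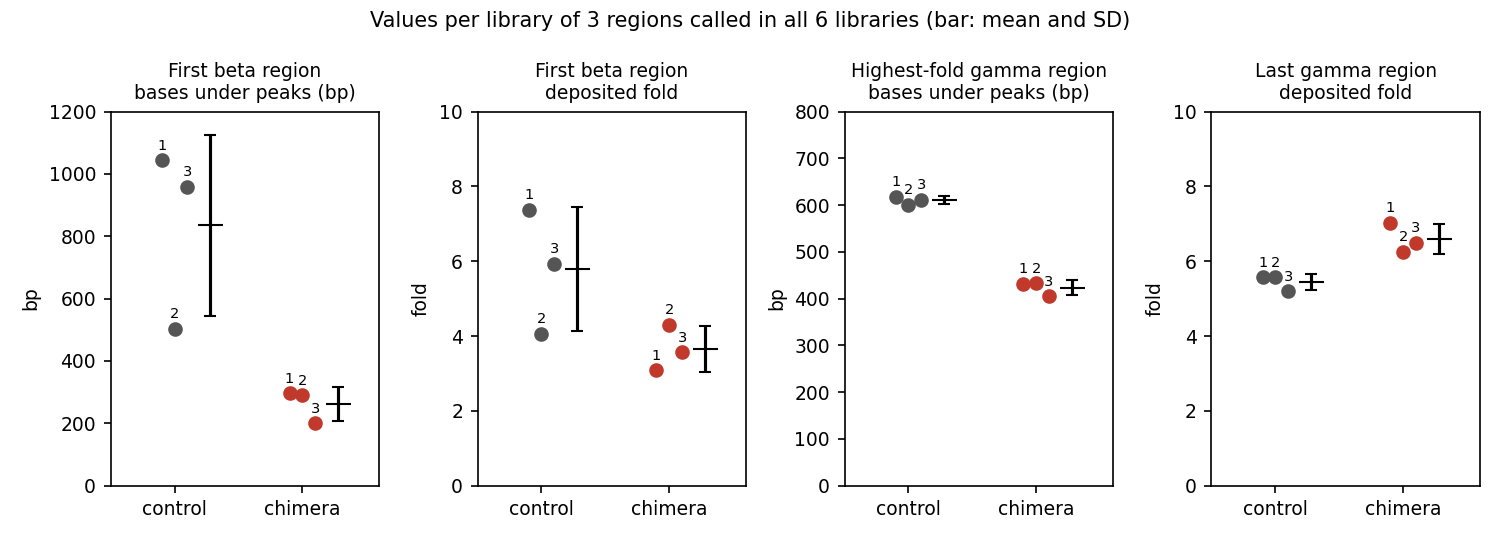
Values per library (points, numbered by replicate) at R15 (first beta region), R38 (gamma region of highest fold) and R41 (last gamma region), with the mean and SD of each group, as bp covered for R15 and R38 and as deposited fold for R15 and R41. Chimera widths lie below control widths at R15 and R38, deposited chimera folds lie above control folds at R41 but overlap once centred, and none of these passed the adjusted threshold.

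For the 16 regions called in all 6 libraries, limma with Benjamini-Hochberg adjustment over 56679 regions called 0 higher and 0 lower in fold, where the background was 0.00706% higher and 0.00353% lower. At an unadjusted p under 0.05 it was 2 of 16, R15 and R41, where 11.3% of all regions were. With the recovered pileup in place of fold, limma again called 0 of 16, where it called 720 higher and 652 lower of all 56679 regions. At an unadjusted p under 0.05 it was then 3 of 16, against 14.9% of all. In simulated data of 56679 regions the fold test recovered 37% of changes of 1 on the log2 scale and 92% of changes of 2, so changes in fold of the size seen here could have been missed. The median log2 difference in fold was -0.03 in the window and 0.03 over all regions, it was above 0 in 5 of 17 alternatives, and 8 of 16 differences were negative, against 45.0% of all. Centred chimera folds lay all below control at 2 regions (R15 and R36), a pattern of 6.99% of all, and all above at 1 (R12), a pattern of 9.5% of all.

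Width gave the same count of calls. Limma called 0 of 16 wider and 0 narrower, as it called 0% of all regions in either direction, and 4 of 16 had an unadjusted p under 0.05, where 8.12% of all regions did. The 4 were R11, R15, R38 and R40, all narrower in chimera, and their centred widths did not overlap, a pattern of 6.35% of all regions. The opposite pattern was held by 0 of 16 and by 6.37% of all. R11 covered 950, 743 and 1042 bp in control and 713, 688 and 779 bp in chimera libraries, overlapping at control 2 before centring, with a log2 difference of -0.29 (SE 0.11) and an adjusted p of 0.557 by limma. The median log2 difference in width was -0.08 in the window, and 12 of 16 differences were negative, against 51.0% of all. Without chimera 3 the median was -0.0082 and 9 of 18 differences were negative. Widths of called peaks also move with depth, whose part in these 4 differences was not tested.

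The window held fewer regions than its neighbours on either side and about as many as the genome at large. It held 5.54 regions per 100 kb, and the stretches of equal length before and after it held 8.51 and 12.8. Chromosome 5 held 4.46 and the genome 5.08 per 100 kb. Regions called in all 6 libraries gave 2.16 per 100 kb in the window, 4.46 before and 5.81 after it, and 1.92 over the genome. The following stretch held 1 region gained and 2 lost, where the window held 0 of each.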

How the data were processed

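ATAC-seq peak lists of 6 libraries of H1155 cells, 3 control and 3 chimera, were used. The authors deposited 1 narrowPeak list per library, and the file names give MACS2 as the caller. Calling was therefore done separately for each library. The submitters' processing notes name HOMER 4.9 and GRCh38 without a role. Not given in the sources used here are the aligner, the filters on reads, whether insertion sites were shifted, and MACS2's version and settings. The deposited fold is the authors' ratio of summit pileup to local background, with 1 added to each. The −log10 p and q that the authors deposited hold within one library, and the authors' integer score, a display value, was not used in tests.

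Peaks on chromosomes 1 to 22 and X sharing 1 bp or more were merged. Summit pileups were recovered from each peak's fold and p with a Poisson model, to a tolerance of 0.005, for 100% of the window's peaks. Single values of the libraries were compared by exact permutation, two-sided. Log2 fold of the strongest peak, and log2 bp covered, were fitted with limma 3.58.1 (trend) in R 4.3.3 over the 56679 regions called in all 6 libraries. Each library was centred on its median, and p-values were adjusted by Benjamini-Hochberg at 0.05. The fold fit was tested on simulated data with 200 changed regions and made 0 false calls. Other steps used Python 3.11.15 with numpy 2.4.6, pandas 2.3.3, scipy 1.17.1 and matplotlib 3.10.9.

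Named regions were all those called in all 6 libraries, those with peaks in 3 of 3 libraries of one group and at most 1 of the other, and any past the adjusted threshold. The window, the lists and the tests were chosen with earlier results of these data known. Alternatives varied the q threshold, list length, merging distance, cover, centring, the summary of peaks and the libraries used. Lists of regulators and of cell type markers were not used, since they need an annotation of the files' build. Total read numbers were not used here, and the pileups stand in for depth.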

Additional observations from a re-analysis of the deposited data

How the results depend on the processing

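Over 20 results, 272 of 283 alternatives kept a called direction, the side of the threshold, or a value within its tolerance. This total includes limma counts of 0 that stayed 0, and the setting of peaks wholly inside the window, which changed no value. The number of regions with 3 control and 0 chimera libraries was kept in 7 of 15 alternatives. Limma called 0 regions of the window under each alternative run. Leaving out 1 library moved the difference in peaks between -7.33 (control 2 out) and -1.33 (chimera 3 out) and that in bp between -4428 (control 2 out) and -1428 (control 3 out). The pattern of 3 chimera and 0 control libraries stayed at 0. The opposite pattern, 0 regions, became 1 with a −log10 q of at least 10 (R24, 1% of all regions under that rule), 1 with peaks covering 50% of a region (R24, 0.997%) and 1 with 2 of 3 control libraries required (R16, 3.85%). It was 0 to 1 with a library left out (R15 in part, R16 or R24), where 1.26% to 2.91% of all regions had it. Without control 2 and chimera 3 together, chosen after seeing the data, it became 2 (R07 in part and R16, against 4.73%). In that setting R40 split, and the width difference was 0.12 for a piece of 286 bp and -0.35 for the piece of 1225 bp, in place of -0.62 for the whole. At a −log10 q of at least 10 the window held 26 regions in place of 41.

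Without centring the window's median log2 fold difference was -0.14 in place of -0.03, and that of all regions moved from 0.03 to -0.08. The window's median turned positive, from 0.0033 to 0.023, in 5 alternatives: both q thresholds, lists of equal length, and the 2 settings without control 2.

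Same-numbered libraries did not deviate together, since their deviations from the group means correlated at -0.0055, -0.059 and -0.015. With the replicate block, 2 regions had a control peak without a chimera peak in at least 2 pairs and the reverse in 0 (4.88%, against 5.56% of all regions). The sign-flip p was 0.75 for peaks and 0.5 for bp (0.25 is the smallest), and limma still called 0.

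Partly shared regions had a median pileup of 19, so a missing peak may be a region just under a library's calling limit. The part of depth in presence was not tested.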
